A study of Mus musculus with 384 samples.

Results

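Of the 57 single cells kept by the authors from 2 Lgr5-CreERT2;R26-Tom mice, 31 had Acta2 detected and 26 had a deposited Acta2 level of 0. Acta2 is the gene for α-smooth muscle actin (α-SMA), and a level of 0 does not exclude transcripts that were missed. A cell was placed in the group with Acta2 where its deposited log2(TPM + 1) value, a level corrected for transcript length, was at least 1, and in the group without Acta2 where it was 0. No cell lay between the limits. The members were thus chosen by their own Acta2 level. The remaining kept cells of the series, 50 and 75, came from 2 Lgr6-EGFP-CreERT2 mice. The groups are referred to below as Acta2+ and Acta2- cells, and the Acta2 values that chose them are given as a description without a test.

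All 57 cells share a genotype, a sort and a protocol. The mice carried an Lgr5-IRES-CreERT2 allele and a Rosa26 reporter that expresses tdTomato once CreERT2 has been activated with tamoxifen, so the label marks cells in which the Lgr5 locus was active at that time, and their descendants, and not necessarily cells that contain Lgr5 mRNA when sorted. The labels give an age of 7 to 10 weeks for most of the mice of the study. Cells were sorted as Tom+ and negative for CD31, CD45, CD11b and TER119, which depletes endothelial, immune and red blood cells, and each was amplified by SMART-Seq2, a full-length method without molecular identifiers, so counts are reads. The Lgr6-EGFP-CreERT2 mice, used here only as a second line for comparison, carry EGFP and CreERT2 at the Lgr6 locus and were sorted as GFP+ with the same depletion.

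α-SMA polymerises into actin filaments, which act with myosin heavy chain 11 (Myh11) and regulatory proteins in the contraction of smooth muscle. Besides the smooth muscle of airways and vessels, it is made by myofibroblasts and by some pericytes, so that Acta2 alone does not separate these cells, and genes of the contractile apparatus, of lung fibroblasts and of mural cells (the pericytes and smooth muscle cells of vessel walls) are usually read beside it. In smooth muscle, many contractile genes are switched on by serum response factor (SRF) with its partner myocardin (Myocd), which act through a short AT-rich element known as a CArG box.

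Promoters of actin genes that hold this element are printed, with that of Acta2, because these genes share long stretches of sequence and their reads are the most likely to be exchanged with those of Acta2. A script searched the 250 bases before the RefSeq transcription start (GRCm38.p6) on the transcribed strand for the CArG box, which reads the same way on both strands, and the capitals mark the match. It was found in 1.47% of 32851 promoters, in 1 of 14 promoter windows of 12 contractile genes (Myl9), and in each of the 3 actin promoters in the table other than Acta2.
Actc1, chr2:114052888-114052947, minus strand: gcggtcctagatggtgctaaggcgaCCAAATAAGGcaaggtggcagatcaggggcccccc
Acta1, chr8:123894814-123894873, minus strand: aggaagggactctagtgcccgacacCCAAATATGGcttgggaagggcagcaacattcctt
Actg1, chr11:120348551-120348610, minus strand: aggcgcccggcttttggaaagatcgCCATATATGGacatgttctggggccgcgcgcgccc
Myl9, chr2:156775278-156775337, plus strand: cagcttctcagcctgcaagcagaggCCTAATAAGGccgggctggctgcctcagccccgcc
The Acta2 promoter held no full match. It held 2 looser forms, with 1 other letter in the AT-rich centre, beginning 84 and 34 bases before the start, and 7.24% of all promoters hold such a form.
Acta2, chr19:34255423-34255482, minus strand: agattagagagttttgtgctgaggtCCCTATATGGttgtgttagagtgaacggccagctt
Acta2, chr19:34255374-34255432, minus strand: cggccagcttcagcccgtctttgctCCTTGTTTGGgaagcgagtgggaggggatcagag
A match is a sequence description and carries no measurement of binding.

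Acta2 was present in a like share of the cells of both mice, 16 of 29 (55.2%, exact Clopper-Pearson 95% interval 35.7 to 73.6) and 15 of 28 (53.6%, 33.9 to 72.5). The Acta2+ cells of mouse 1 ranged from 1.68 to 12.97 on the log2(TPM + 1) scale with a median of 8.41, and those of mouse 2 from 5.87 to 10.4 with a median of 8.98. Most Acta2+ cells therefore lay far from the limit. The exceptions were 2 cells of mouse 1, at 1.68 and 1.72, that were placed by 1 read each, followed by a cell of mouse 1 at 4.40 with 8 reads. At the other end, 1 cell of mouse 1 (well 23) at 12.97 held 8130 of the 10697 Acta2 reads of its group (76%), whereas the highest cell of mouse 2 held 26.8% of 6830. The Acta2- cells together held 0 reads in mouse 1 and 1 read in mouse 2, the latter in a cell whose deposited TPM is 0. In the Lgr6 line, 43 of 50 (86%) and 59 of 75 (78.7%) kept cells were Acta2+ by the same limits, with medians of 11.9 and 12.2.

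**Figure D1:**
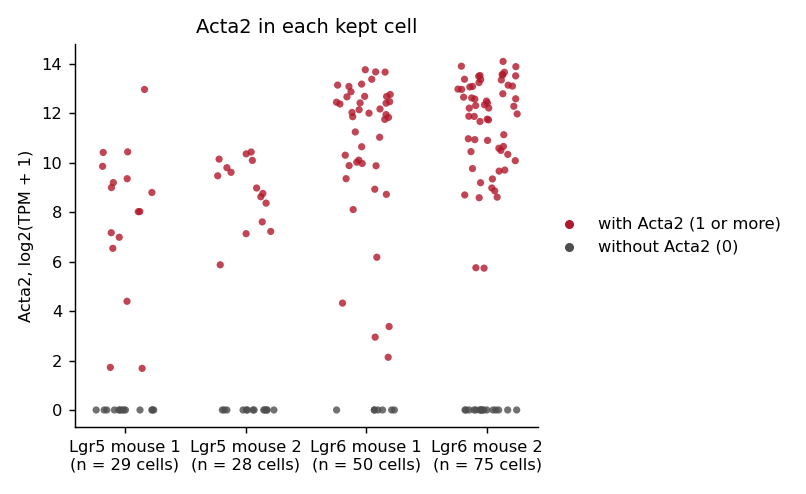
Acta2 level of each kept cell as log2(TPM + 1), by line and mouse, with 1 point per cell and colour for the group. Lgr5-sorted Acta2+ cells lie mostly between 5.87 and 10.4, with 1 cell at 12.97 and 3 cells below 5, and the Lgr6-sorted Acta2+ cells have medians of 11.9 and 12.2.

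Depth did not fall in one direction between the groups. The median total of reads per cell was 259167 in Acta2+ and 302849 in Acta2- cells of mouse 1, and 338524 against 209769 in mouse 2. Median genes per cell were 4627 against 4104 and 3714 against 3566, higher in the Acta2+ cells of both mice. The ribosomal transcript Rn45s took between 24.5% and 27.7% of the summed reads of the 4 groups. Its median share per cell was 34.69% in Acta2+ and 33.69% in Acta2- cells of mouse 1, and 26.03% against 42.53% in mouse 2. The part of this mouse 2 difference in the shares of cells with a read was not tested. The tdTomato reporter was read in all 57 cells, Pecam1 in none and Ptprc in 1, by 1 read. The authors kept only cells with reporter transcripts and with Ptprc and Pecam1 TPM below 1. These counts therefore reflect that filter. Lgr5 itself was read in 24 of 31 Acta2+ and 20 of 26 Acta2- cells. Its summed level was 731 counts scaled to the library total (CPM) against 687 in mouse 1 and 689 against 116.96 in mouse 2, and single cells held 63.4% and 49.5% of the Acta2+ reads. The log2 fold change of Lgr5 was 1.32 (SE 0.84, edgeR's quasi-likelihood test, unadjusted p = 0.188), and it took the opposite sign where each cell was given the same weight (-0.37), so no direction is given for it.

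For the comparison of the groups, reads were summed over the Acta2+ and over the Acta2- cells of each mouse, and the 4 sums were compared with the mouse as a block. The mouse is the replicate, n = 2, and cells of 1 mouse are not independent. Of 10930 genes tested with edgeR (quasi-likelihood, Benjamini-Hochberg), 0 passed an adjusted p of 0.05 (0.0%), while 432 had an unadjusted p under 0.05 (3.95%), being 1.66% of genes higher and 2.3% lower in Acta2+ cells. DESeq2 on the same sums called 267 of 18334 genes (1.46%), of which 90 were higher. Acta2 was among these, and the choice of groups fixed its call. On simulated sums with the same spread, edgeR found 0 of 100 genes changed by 3 on the log2 scale and 41 of 100 changed by 8, and DESeq2 23 and 87 with 216 false calls, so 4 sums could show only very large differences by edgeR. None of the differences described below passed edgeR's adjustment in the comparison of 4 sums as filtered here, and their edgeR adjusted p is 1 unless another value is given. Of the listed genes, DESeq2 called Cnn1 as higher, and Actg2, which may carry reads of Acta2 and is a description only. It called Epcam, Sftpa1, Sftpb, Sftpc, Cd74, Lyz2 and Hba-a2 as lower. EdgeR without a filter on low counts called Sftpa1 and Sftpc as lower. The differences below are reported as levels per mouse, with the count of mice that share the direction.

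The contractile genes stood higher in Acta2+ cells. Of 16 listed genes other than actins 15 could be tested, and 13 of them were higher in the Acta2+ cells of both mice and 0 lower in both, where 25.7% of all genes tested were higher in both mice and 23.8% lower in both. Their median log2 fold change was 1.98, with 1.85 in mouse 1 and 2.06 in mouse 2, against a median of 0.01 over all genes tested, and this median ran from 1.25 to 2.51 over the other ways of processing tried. By edgeR's unadjusted p under 0.05, 5 of the 15 were higher and 0 lower, where 1.66% of all genes were higher.

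Myosin heavy chain 11 (Myh11, chr16:14194535-14291372), the motor protein of smooth muscle, reached 807 CPM in Acta2+ and 34.6 CPM in Acta2- cells of mouse 1, and 62.4 against 3.39 CPM in mouse 2. Both Acta2+ sums thus exceeded their Acta2- partner by more than 10 times, a log2 fold change of 4.37 (SE 0.80, edgeR unadjusted p = 0.00446). Transgelin (Tagln, chr9:45929619-45936058), an actin-binding protein and early marker of smooth muscle, was at 291 against 31.2 CPM in mouse 1 and at 222 against 4.11 CPM in mouse 2, a log2 fold change of 4.47 (SE 1.24, edgeR unadjusted p = 0.0202). The Acta2+ sums of Tagln lay within 1.5 times of each other, and the 4 sums did not overlap between groups. Desmin (Des, chr1:75360329-75368579), the intermediate filament of muscle, was the most abundant of the list in the Acta2+ sum of mouse 1, where 86.4% of its reads lay in 1 cell, and in that of mouse 2, at 2014 against 153.2 CPM and 614 against 111.96 CPM. Its log2 fold change was 3.09 (SE 0.60, edgeR unadjusted p = 0.00547).

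Tropomyosins cover the myosin-binding sites of actin filaments, and the 2 measured genes differed in size of change. Tpm2 (chr4:43514711-43523765) was at 416 against 32.6 CPM in mouse 1 and 66.98 against 3.39 CPM in mouse 2, a log2 fold change of 3.98 (SE 0.98, edgeR unadjusted p = 0.0135). Tpm1, which has non-muscle forms, was at 793 against 315 CPM and 522 against 409 CPM, a log2 fold change of 0.84 (SE 0.57). Tpm1 was read in 22 cells of either group, 22 of 31 Acta2+ and 22 of 26 Acta2-.

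Myosin is switched on by phosphorylation of its light chain. The light chain gene Myl9 (chr2:156775420-156781658) was at 1310 against 141.3 CPM in mouse 1 and at 275 against 163.9 CPM in mouse 2, and the kinase Mylk at 714 against 243 CPM and 340 against 157.9 CPM. The log2 fold changes were 1.98 (SE 0.88) for Myl9 and 1.33 (SE 0.60) for Mylk. Caldesmon (Cald1), which holds the filament off, was at 193 against 55.1 CPM and 150.6 against 94.5 CPM. Each of these 3 genes was higher in Acta2+ cells of both mice, by less in mouse 2 than in mouse 1.

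Myocd (chr11:65176561-65269989), the muscle-specific partner of SRF, was at 195 and 198 CPM in the Acta2+ sums and at 42.9 and 19.8 CPM in the Acta2- sums of mouse 1 and 2. The Acta2+ levels of Myocd were nearly the same in the 2 mice, and the log2 fold change was 2.75 (SE 1.02, edgeR unadjusted p = 0.0501). Csrp1, a LIM-domain protein of smooth muscle, was at 607 against 182.4 CPM and 332 against 79.1 CPM, a log2 fold change of 1.90 (SE 0.64, edgeR unadjusted p = 0.0382). The actin-filament proteins Lmod1 and Synpo2 and smoothelin (Smtn) were also higher in both mice, with log2 fold changes of 4.03 (SE 2.27), 2.50 (SE 1.05) and 1.98 (SE 1.62). The remaining 2 tested genes did not share a direction between mice: Tgfb1i1, a co-activator at focal adhesions, was at 79.5 against 23.2 CPM and 44.7 against 63.4 CPM, and phospholamban (Pln), a regulator of calcium uptake, had at most 16.4 CPM in any sum. Calponin (Cnn1), a late smooth muscle marker, did not pass the filter on low counts, with 10464 and 7 reads in 6 Acta2+ cells and 0 reads in Acta2- cells.

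**Figure D2:**
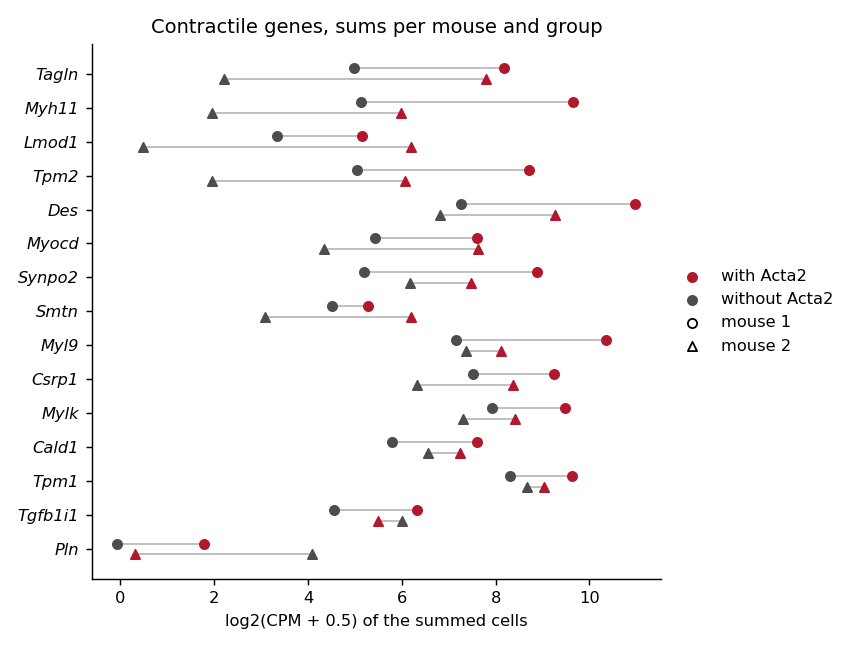
Levels of the 15 tested contractile genes as log2(CPM + 0.5) of the summed cells, with circles for mouse 1, triangles for mouse 2, red for Acta2+ and grey for Acta2- sums, and a line joining the 2 sums of a mouse. The red symbol lies right of the grey one in both mice for 13 genes, and in mouse 1 alone for Tgfb1i1 and Pln.

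In mouse 1 these sums rested largely on a single cell. The cell with the highest Acta2, well 23, held 94.8% of the Myh11 reads, 98.5% of Synpo2, 97.9% of Cnn1, 78.9% of Myl9 and 72.2% of Tagln reads of its group, and 15 of the 16 contractile genes had a read in it. It held 1 read of Lgr5 and 46.3% of the Lgr6 reads, and 99.7% of the Actc1 reads. Without this cell, 11 of 15 genes were still higher in both mice and 0 lower in both, and the median log2 fold change was 1.25. The values became 3.66 for Tagln, 2.34 for Myh11, 3.08 for Tpm2, 2.60 for Myocd, 1.76 for Des and 1.23 for Lmod1. That of Synpo2 turned to -0.40. Without the 31 cells that had Epcam or Sftpc at log2(TPM + 1) of 1 or more, which left 6 Acta2+ and 4 Acta2- cells of mouse 1 and 10 and 6 of mouse 2, 7 of 14 genes were higher in both mice with a median of 1.30, beside 0.34 over all genes then tested.

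Counting cells rather than reads gives the single cell no more weight than any other. Over the 16 contractile genes, the median share of cells with a read was 53.2% of Acta2+ and 28.8% of Acta2- cells, and the share was larger in Acta2+ cells for 14 genes and smaller for 2 (Tpm1 and Tgfb1i1). Over all genes tested other than Acta2 the share was larger in Acta2+ cells for 54% and smaller for 45.2%, with medians of 29.03% and 26.9%. Other mesenchymal lists had a like tally, 14 larger and 4 smaller for matrix, 11 and 2 for alveolar fibroblast and 8 and 2 for duct myofibroblast genes. Myl9 was read in 22 of 31 Acta2+ cells, 10 of 16 in mouse 1 and 12 of 15 in mouse 2, and in 9 of 26 Acta2- cells, 5 of 13 and 4 of 13. Tagln was read in 9 of 16 and 9 of 15 Acta2+ cells and in 3 of 13 and 4 of 13 Acta2- cells. Cald1, Myocd and Tpm2 were read in 20, 17 and 16 of the Acta2+ cells and in 10, 8 and 7 of the Acta2- cells, and Mylk in 29 and 18. After thinning each cell to 113000 reads, which left 28 Acta2+ and 23 Acta2- cells, the median shares were 48.2% and 21.7%. Tagln then remained in 15 and 4 cells, Myl9 in 19 and 9, and Cnn1 in 5 and 0.

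Within each mouse the groups overlapped cell by cell. The summed level of the 16 contractile genes per cell ran from 9.34 to 15.9 with a median of 11.6 in Acta2+ cells of mouse 1 and from 8.03 to 12.003 with a median of 10.5 in Acta2- cells, on the log2(TPM + 1) scale. In mouse 2 it ran from 8.32 to 12.97 with a median of 11.2, and from 8.19 to 11.5 with a median of 10.1. Only 4 of 16 and 7 of 15 Acta2+ cells lay above every Acta2- cell of their mouse. Every Acta2- cell had a read of at least 2 contractile genes, and the most was 9, in mouse 2, against 15 and 12 in the Acta2+ cells of the 2 mice.

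**Figure D3:**
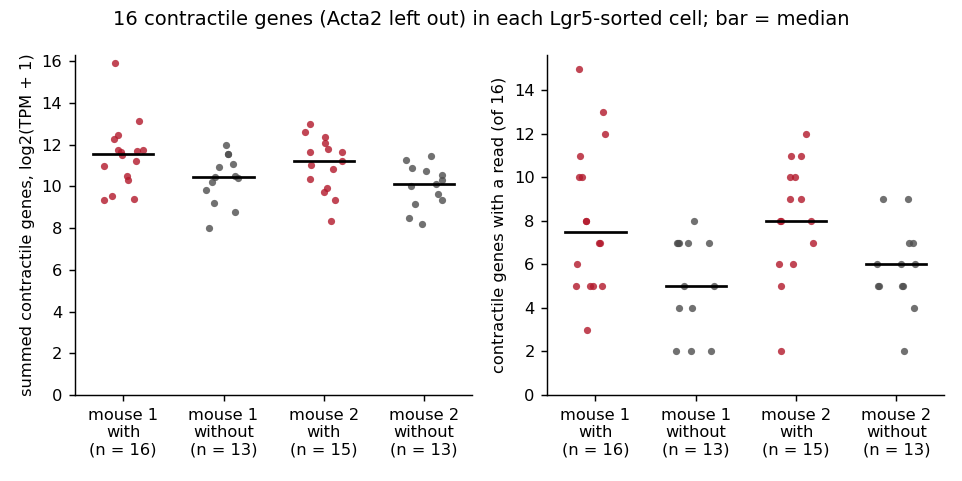
Summed level of the 16 contractile genes, Acta2 left out, as log2(TPM + 1) (left) and the number of them with a read (right) in each Lgr5-sorted cell, by mouse and group, with bars at the medians. Medians are 11.6 and 11.2 in Acta2+ against 10.5 and 10.1 in Acta2- cells, and the points of the groups overlap in both mice.

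The other actins are a description only, since kallisto can assign reads between paralogs of Acta2. The cytoplasmic actins were abundant in every sum, Actb between 744 and 1595 CPM and Actg1 between 1548 and 3284 CPM, and were higher in Acta2+ cells of both mice, by 0.79 and 0.76 on the log2 scale. Smooth muscle γ-actin (Actg2) was at 408 against 6.88 CPM in mouse 1 and at 15.8 against 0 CPM in mouse 2, and cardiac actin (Actc1) at 663 against 3.44 CPM and 13.4 against 3.93 CPM. Well 23 held 91.3% and 99.7% of those mouse 1 reads, and without it the log2 fold change of Actc1 was 0.56. Skeletal actin (Acta1), whose promoter holds the CArG box shown above, was between 19.1 and 24.3 CPM in all 4 sums and did not separate the groups. Of the cytoskeletal and SRF-related genes, 11 of 17 listed were tested, 5 were higher in both mice and 1 lower in both, with a median log2 fold change of 0.37. Filamin A (Flna), which links actin to membranes, was at 2227 against 135.6 CPM and 718 against 338 CPM. A single cell held 69.2% of its Acta2+ reads in mouse 1, and its log2 fold change of 2.56 became 1.83 without well 23. Vinculin (Vcl), of focal adhesions, was at 472 against 185.3 CPM and 268 against 14.1 CPM. Srf was read in 4 Acta2+ and 1 Acta2- cells and did not pass the filter.

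The alveolar fibroblast genes differed in direction between the mice. Of these genes, 11 of 13 listed were tested, 3 were higher in both mice and 1 lower in both, and the median log2 fold change of 0.87 joined -1.10 in mouse 1 with 2.99 in mouse 2. This depended on which cells entered, since without the cells with Hbb-bh1 at log2(TPM + 1) of 10 or more, which left 13 Acta2+ and 9 Acta2- cells, 10 of 11 genes were higher in both mice and 0 lower, with a median of 6.28 beside 0.46 over all genes. Pdgfra, the platelet-derived growth factor receptor of alveolar fibroblasts, had a read in 5 of 31 Acta2+ and 4 of 26 Acta2- cells, and its sums were 2.14 against 146.6 CPM in mouse 1 and 43.9 against 0.357 CPM in mouse 2. The transcription factor Tcf21 was read in 3 and 1 cells. Npnt, a ligand of integrin α8, had lower sums in Acta2+ cells of both mice, at 51.2 against 168.1 CPM and 56.7 against 94.1 CPM. Its log2 fold change was -1.22 (SE 1.03). By cells the direction was the other, with a read in 7 of 31 Acta2+ and 4 of 26 Acta2- cells. All Npnt reads of the mouse 1 Acta2- sum lay in 1 cell. The fibroblast growth factor Fgf10 and the integrin chain Itga8 were higher in both mice, with log2 fold changes of 1.88 (SE 1.95) and 4.05 (SE 3.72). Fgf10 was read in 11 Acta2+ and 6 Acta2- cells, and Itga8 in 6 and 3. These genes were each carried by few cells, and 1 cell held between 46.1% and 100% of the reads of Fgf10, Npnt, Tcf21 and Mfap4 in each sum that had any.

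Transcripts of matrix genes ran in both groups from high (Bgn) to low levels (Fn1, with a mean of 32.7 CPM over the 4 sums). Of 16 tested matrix and general mesenchymal genes, 8 were higher in both mice and 1 lower in both, with a median log2 fold change of 0.63 that joined -0.03 in mouse 1 with 1.37 in mouse 2. Collagen I (Col1a1) was read in 28 of 31 Acta2+ and 21 of 26 Acta2- cells, at 563 against 421 CPM and 587 against 252 CPM. Biglycan (Bgn), a small matrix proteoglycan, was between 1436 and 2267 CPM in all 4 sums, a log2 fold change of 0.14 (SE 0.32). Elastin (Eln) was at 109.4 against 265 CPM in mouse 1 and 463 against 155.5 CPM in mouse 2, so the mice went opposite ways. The matricellular protein Sparc and the collagen cross-linking enzyme Loxl2 were higher in both mice, with log2 fold changes of 0.85 (SE 0.60) and 1.10 (SE 0.87), and fibronectin (Fn1) by 1.53 (SE 1.46). Without the cells with Epcam or Sftpc the median of the 16 genes then tested was -0.13, and 3 genes were higher and 5 lower in both mice.

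Of 10 genes reported for myofibroblasts of the alveolar ducts, all tested, 6 were higher in both mice and 0 lower in both, with a median log2 fold change of 0.81. Without the 3 cells with the highest Sftpc, described further on, 4 were higher with a median of 0.28, and without the cells with Epcam or Sftpc 2 were higher and 2 lower with a median of 0.25, beside 0.34 over all genes. Pdgfa, a growth factor, had a log2 fold change of 1.45 (SE 1.75). More abundant were Tgfbi, a TGF-β-induced matrix protein, at 1051 against 570 CPM and 2514 against 742 CPM (log2 fold change 1.32, SE 0.44, edgeR unadjusted p = 0.0368), and asporin (Aspn) at 747 against 303 CPM and 951 against 661 CPM. Hhip, the hedgehog-interacting protein, was abundant in both groups, at 3846 against 5251 CPM in mouse 1 and 6326 against 3037 CPM in mouse 2, with a read in 30 of 31 Acta2+ and 21 of 26 Acta2- cells. Of the adventitial fibroblast genes 6 of 10 were tested and none had 1 direction in both mice, decorin (Dcn) for one being at 484 against 806 CPM and 1550 against 607 CPM.

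Pericyte and mural genes were read in very unequal shares of the cells. Of 17 listed pericyte and mural genes 15 were in the files and 7 could be tested, of which 4 were higher in both mice and 1 lower in both, and the median log2 fold change was 1.53, with 0.88 in mouse 1 and 2.76 in mouse 2. Rgs5, Notch3, Mcam, Higd1b, Cox4i2, Trpc6 and Ndufa4l2 were read in at most 4 cells of a group, and Lamc3 in 0 of 57, which by counting error alone allows a share of cells with a read of up to 5.26% and says nothing of cells whose transcripts were missed. Cspg4, the NG2 proteoglycan of pericytes, was read in 2 Acta2+ and 3 Acta2- cells. Pdgfrb, the receptor that pericytes need to attach to vessels, was read in 8 and 5 cells, at 30.4 against 14.7 CPM in mouse 1 and 156.1 against 313 CPM in mouse 2, a log2 fold change of 0.02 (SE 1.0). The 2 subunits of an ATP-sensitive potassium channel, Kcnj8 and Abcc9, were the most widely read of the list. Kcnj8 was in 19 and 12 cells at 379 against 326 CPM and 300 against 43.8 CPM, and Abcc9 in 24 and 18 cells at 55.3 against 199 CPM and 243 against 330 CPM. By summed reads the channel subunits thus went opposite ways, with log2 fold changes of 1.495 (SE 0.99) and -1.14 (SE 0.82). By cells both had the larger share in the Acta2+ group, 61.3% against 46.2% for Kcnj8 and 77.4% against 69.2% for Abcc9. Single Acta2+ cells held 72.1% and 67.9% of the Kcnj8 reads of mouse 1 and mouse 2. A single Acta2- cell of mouse 2 held 87.5% of the Abcc9 reads of its sum. The nitric oxide receptor subunit Gucy1a3 was higher in both mice, at 96.4 against 25.5 CPM and 182.5 against 15.4 CPM (log2 fold change 2.74, SE 1.21), its partner Gucy1b3 was not, and the Notch target Heyl rested on 2 Acta2+ cells and 1 Acta2- cell.

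**Figure D4:**
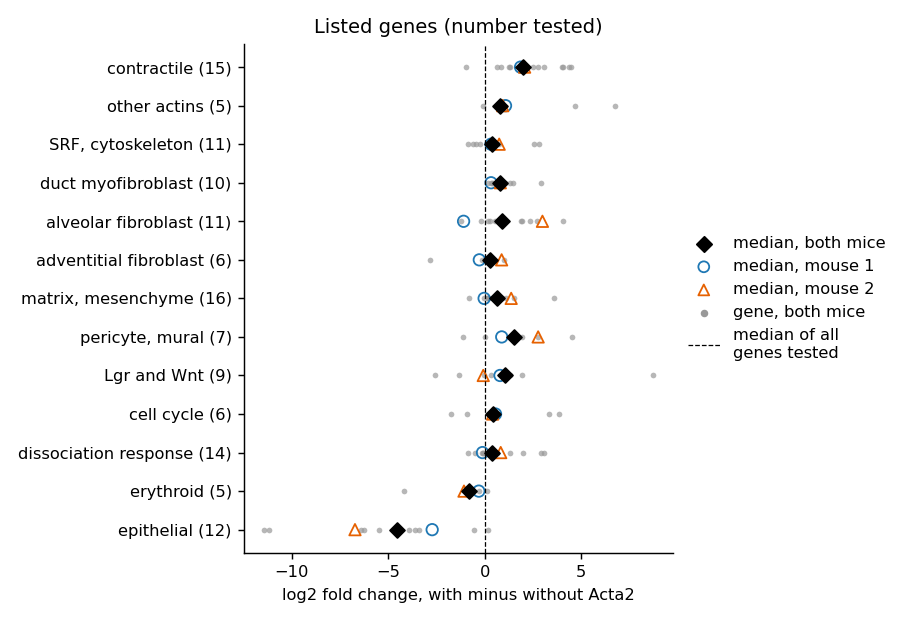
Log2 fold changes of listed genes between Acta2+ and Acta2- sums, 1 grey point per tested gene, with the median over both mice as a diamond and the medians of mouse 1 and mouse 2 as an open circle and triangle. The contractile medians of the mice lie together at 1.85 and 2.06, those of the alveolar fibroblast list lie apart at -1.10 and 2.99, and those of the epithelial list are at -2.73 and -6.73.

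Over all genes other than actins, the 10 of smallest p that were higher in both mice included Myh11, Des and Tpm2. Endoglin (Eng, chr2:32646595-32682669), a co-receptor for TGF-β and BMP ligands, was at 134.9 against 13.1 CPM in mouse 1 and 612 against 22.9 CPM in mouse 2, a log2 fold change of 4.06 (SE 0.92, edgeR unadjusted p = 0.0100). It was spread over cells, with a read in 20 of 31 Acta2+ and 8 of 26 Acta2- cells, and no Acta2+ cell held more than 25.4% of its reads in a mouse. The other 6 were Oasl2, an interferon-induced gene, Gbp2, an interferon-induced GTPase, Mr1, which presents metabolites to T cells, Abat, a transaminase of GABA, Tecpr1, of autophagy, and Abhd12, a lipid hydrolase. Each was read in 4 to 10 Acta2+ and 1 to 4 Acta2- cells, and a single cell held between 45.8% and 100% of their Acta2+ reads in each mouse. None of these 10 passed edgeR's adjusted threshold. DESeq2 on the same sums called the 6 genes carried by few cells, with adjusted p from 0.0009 (Oasl2) to 0.0063 (Gbp2), and did not call Eng (0.156), Myh11 (0.104), Tpm2 (0.169) or Des (0.338).

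The lower genes of smallest p included those of alveolar type II cells, the surfactant-producing epithelium, and the surfactant reads lay mostly in 3 wells. Surfactant protein C (Sftpc, chr14:70520949-70524081) was at 68.8 CPM in Acta2+ and 106770 CPM in Acta2- cells of mouse 1, and at 18.3 against 64950 CPM in mouse 2, a log2 fold change of -11.19 (SE 0.47, edgeR adjusted p = 0.0861). Sftpa1 (-11.45, SE 0.58) and the phosphate transporter Slc34a2 (-11.99, SE 0.60) had the same adjusted p of 0.0861, and Chi3l1, Cbr2, Cd36, Il8 as the files name it, Cd74, Sftpd and Ctsh, with edgeR adjusted p from 0.409 to 0.938, completed the 10 of smallest p. Of 12 tested epithelial genes 0 were higher and 8 lower in both mice, with a median log2 fold change of -4.56. One Acta2- cell of mouse 1 (well 1) and 2 of mouse 2 had Sftpc at 18.6 to 19.2 on the log2(TPM + 1) scale. They held 99.97% and 99.99% of the Sftpc reads and 30.4% and 32.5% of all reads of the 2 Acta2- sums, and no Acta2+ cell reached 15. Without these 3 cells the log2 fold changes were 0.54 for Sftpc, 1.26 for Sftpa1 and 0.02 for Sftpb, and Epcam, Chi3l1, Slc34a2, Cd74 and Sftpd no longer passed the filter. Cd36 was still at -6.88, Cbr2 at -3.11, Ctsh at -2.68 and Il8 at -0.88, each with an edgeR adjusted p of 1. Of 8 epithelial genes then tested 2 were higher and 2 lower in both mice, with a median of -0.78. The contractile list was then as before, with 13 of 15 genes higher in both mice and a median of 1.97, and the matrix list had a median of 0.11.

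**Figure D5:**
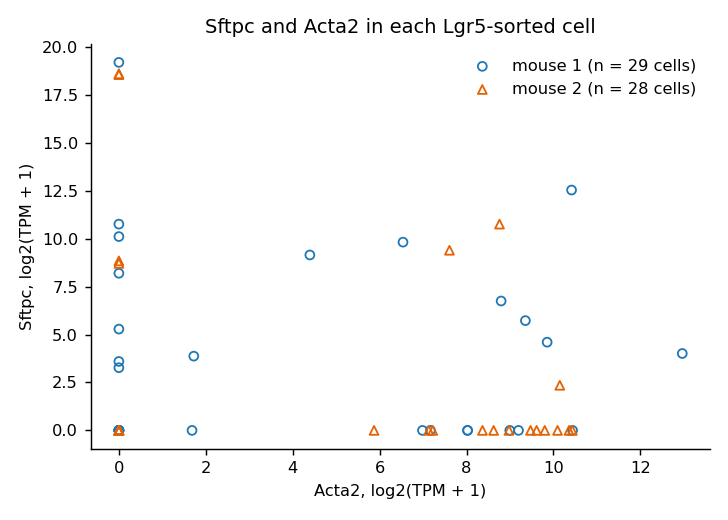
Sftpc against Acta2 in each Lgr5-sorted cell, both as log2(TPM + 1), with circles for mouse 1 and triangles for mouse 2. The 3 cells with Sftpc from 18.6 to 19.2 have Acta2 at 0, and among the Acta2+ cells Sftpc reaches 12.5.

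Few markers of other cells could be tested. Of 7 endothelial genes 1 (Egfl7) passed the filter on low counts. Pecam1 was at 0 in every cell, which reflects the authors' removal of cells with Pecam1. Of 9 immune genes 3 passed, among them Lyz2, a lysozyme gene also used by alveolar type II cells. The Acta2- reads of Lyz2 lay to 99.996% and 99.93% in the wells with Sftpc. Of 4 mesothelial genes 0 passed. The embryonic globin gene Hbb-bh1 was read in 31 of 31 Acta2+ and 24 of 26 Acta2- cells, at 258 against 331 CPM and 296 against 361 CPM, a log2 fold change of -0.32 (SE 0.61). Of 14 genes of the response to tissue dissociation, 6 were higher and 2 lower in both mice with a median of 0.38. Among the higher were the heat shock genes Hspa1a (402 against 191.99 CPM and 1554 against 46.2 CPM) and Hspa1b (3.95 against 0 CPM and 85.7 against 43.035 CPM). The mouse 1 reads of Hspa1b lay in 1 cell. The phosphatase gene Dusp1 was also higher (1001 against 623 CPM and 1056 against 109.3 CPM). Among the lower was Egr1, at 1028 against 2711 CPM in mouse 1 and 1059 against 1346 CPM in mouse 2. Of the 6 tested cell cycle genes 3 were higher and 2 lower in both mice, and Mki67 was read in 2 Acta2+ and 1 Acta2- cells. The part of these values in the differences above was not tested.

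Lgr6, the paralog of Lgr5, was read in 13 of 31 Acta2+ and 4 of 26 Acta2- cells, 7 of 16 against 1 of 13 in mouse 1 and 6 of 15 against 3 of 13 in mouse 2. Its sums were 49.4 against 3.67 CPM and 35.4 against 107.1 CPM, and 1 Acta2- cell of mouse 2 held 94.7% of the last. The direction by cells and that by reads thus parted in mouse 2. Among the Wnt pathway genes, Znrf3, a ubiquitin ligase that removes Wnt receptors, was between 40.3 and 50.7 CPM in all sums (log2 fold change -0.07, SE 1.25), and the target gene Axin2 was read in 3 and 4 cells.

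Whether the same split looked different in the second line was tested on 8 sums, with the mouse as a block. Of 13602 genes, 1 (0.00735%) had a difference by Acta2 that differed between the lines at an adjusted p under 0.05, Chi3l1, and 0 of the contractile, pericyte or fibroblast genes did. The median of this difference over all genes was -0.64, so values are read against it. Myh11 had a log2 fold change of 4.37 in the Lgr5 and 6.97 in the Lgr6 line (difference -2.56, SE 1.12, edgeR unadjusted p = 0.0436, adjusted p = 1), and Tagln 4.47 and 4.39. In the Lgr6 line 0.0294% of genes were called, 4 of 13602. Among them were Acta2, whose call the choice of groups fixed, and Actc1 and Actg2. Actc1 and Actg2, which may carry reads of Acta2 and are again a description, had log2 fold changes of 14.96 and 14.57 there, and differences between the lines of -10.26 and -7.80. A p that misses the threshold does not show that the lines were alike.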

How the data were processed

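Single lung cells were sorted into wells and sequenced by SMART-Seq2. The authors demultiplexed reads with bcl2fastq 2.17.1.14, aligned and quantified them with kallisto 0.43.0 against mm10 (versions per the submitters' processing notes), and kept cells with at least 2000 genes, with reporter transcripts, with housekeeping genes, and with Ptprc and Pecam1 TPM below 1. They deposited a table of gene counts for all wells and a log2 table, log2(TPM + 1), for kept cells. The deposited coordinate scores of the authors' cell map were not used.

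Cells were split by Acta2 in the log2 table, and their counts, taken as whole reads, were summed per mouse and group. Genes were filtered with filterByExpr and compared by edgeR 4.0.16 (quasi-likelihood, TMM, Benjamini-Hochberg), with the mouse as a block, since both groups came from the same mouse. The deviations of the paired sums correlated at r = 0.03 over 10930 genes. One residual degree of freedom remained. Levels are CPM of the TMM-scaled sum, and SE is that of the log2 fold change. Rn45s took 25.7% of counts and stayed in the totals. DESeq2 1.42.0 and limma 3.58.1 served as alternatives, with other scalings, no filter, no block, thinning, other Acta2 limits and the removal of cells. The edgeR and DESeq2 steps were tested on simulated counts. Named genes were the actins, Lgr5 and Lgr6, each tested contractile and pericyte gene, up to 4 members of each other list with the largest change, the same direction in both mice and at least 10 CPM, and the 10 genes of smallest p in each direction. Genes outside this rule (Col1a1, Bgn, Eln, Hhip, Dcn, Pdgfra, Tcf21, Srf, Axin2, Mki67, Cnn1, Egfl7 and pericyte genes not tested) were named after their values were seen. The members and lists were chosen with earlier results of these data known. Intervals cover counting error only. Promoters were taken from RefSeq (GRCm38.p6), and gene coordinates from GENCODE on the same build (mm10). Tagln, Myh11, Myocd, Actg2, Actb and Tgfb1i1 had no promoter in the table.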

Additional observations from a re-analysis of the deposited data

Results flagged for a closer look

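Chi3l1, a chitinase-like protein, was the gene whose difference by Acta2 differed between the lines, by -15.50 on the log2 scale (SE 1.55, edgeR adjusted p = 0.0311, n = 2 mice per line). The call was lost with no replicate block and on leaving out either Lgr6 mouse, and was kept on leaving out either Lgr5 mouse. In the Lgr5 line it had 0 reads in the Acta2+ cells of both mice and 8704 and 17854 reads in the Acta2- cells, which lay wholly in the 3 cells with Sftpc of 15 or more. Against 3 counts over the Acta2+ group this is at least 11370-fold lower. In the Lgr6 line the reads were 308 in Acta2+ and 358 in Acta2- cells of mouse 1, and 4327 and 9539 in mouse 2, each carried by 2 to 6 cells. The part of the Sftpc-rich cells in this difference was not tested.

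Wells that the authors removed also held Acta2. Among removed wells with at least 2000 genes from Lgr5-sorted mice, 38 of 59 (64.4%) in mouse 1 and 25 of 54 (46.3%) in mouse 2 had Acta2 at 1 or more on the log2(TPM + 1) scale. Of these wells, 50 in each mouse had Ptprc or Pecam1 at a TPM of 1 or more, and 33 and 25 of them had Acta2. Of the 9 and 4 wells without either, 5 and 0 had Acta2.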

How the results depend on the processing

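Of 0 genes called with edgeR between the groups, DESeq2 made 267, Acta2 among them. With no replicate block edgeR called 5 (Chi3l1, Sftpa1, Sftpc, Slc34a2 and Acta2, whose call the choice of groups fixed). With no filter it called 4, and with 8 sums of both lines 2 (Chi3l1 and again Acta2). It called 1 each without cells of Sftpc at 15 or more (Rn45s) or Hbb-bh1 at 10 or more (Sftpc). The mouse paired the sums by design, and the block changed no call of a listed non-actin gene outside the epithelial list. The 1 gene that differed between lines became 3 with no filter, 0 with no replicate block, 274 with DESeq2 and 0 to 5 on leaving out a mouse. Actc1, which may carry Acta2 reads, was among those called with no filter and without either Lgr5 mouse. The contractile median of 1.98 became 2.38 with no replicate block, 1.504 and 1.57 with limma on TPM (pseudocount 1 and 0.1), 1.33 with limma on scaled counts, 2.23 on library size, 2.31 with no filter, 1.64 when thinned, 1.30 without cells with Epcam or Sftpc, 1.25 without the cell of highest Acta2, 2.51 without cells with Hbb-bh1 of 10 or more, and 1.85 and 2.06 in single mice, where no test is possible. Single-mouse medians were 0.88 and 2.76 for pericyte, -1.10 and 2.99 for alveolar fibroblast and -0.03 and 1.37 for matrix genes, and the alveolar median was 6.28 without cells with Hbb-bh1 of 10 or more. Thinning took the shares from 53.2% and 28.8% to 48.2% and 21.7%. The median of all genes shifted to 0.23 and 0.29 (limma on TPM), 0.26 (library size), 0.34 (without Epcam or Sftpc) and 0.46 (without Hbb-bh1).

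Of the named genes, 24 changed sign somewhere, and the cause was not tested. With DESeq2 size factors Pdgfrb was -0.014, on library size Acta1 0.16 and Znrf3 0.18, and with no filter Znrf3 0.0097. With limma on TPM at pseudocount 0.1, Acta1 was 0.0021, Filip1l -0.31, Lgr5 -0.21, Limch1 -0.59, Mkl2 -0.26, Tgfb1i1 -0.25 and Znrf3 0.51, and at pseudocount 1 Acta1 0.0020, Filip1l -0.31, Gucy1b3 -0.39, Lgr5 -0.21, Limch1 -0.52, Mkl2 -0.24, Tgfb1i1 -0.26 and Znrf3 0.49. With limma on scaled counts, Filip1l was -0.16, Gucy1b3 -0.13, Lgr5 -0.37, Limch1 -0.59, Tgfb1i1 -0.38, Top2a -0.062 and Znrf3 0.22. With no replicate block, Gucy1b3 was -1.27, Lgr6 -0.39 and Pdgfrb -0.81. Thinned, Filip1l was -0.46, Limch1 -0.92, Pdgfrb -0.033, Tgfb1i1 -0.31 and Znrf3 0.014. Without cells with Epcam or Sftpc, Actg2 was -0.21, Birc5 2.82, Mustn1 -0.35, Pdgfrb -2.14, Sftpb 0.26, Smtn -3.42, Synpo2 -2.62, Top2a -0.51 and Tpm1 -0.25. Without cells with Hbb-bh1 of 10 or more, Acta1 was 4.02, Hbb-bh1 0.17, Npnt 4.46 and Znrf3 0.21. Without cells with Sftpc of 15 or more, Limch1 was -0.26, Lyz2 0.0037, Pdgfrb -0.51, Sftpa1 1.26, Sftpb 0.024, Sftpc 0.54 and Znrf3 0.20. In mouse 1 and mouse 2 alone Lgr6 was 3.58 and -1.58, Pdgfrb 1.03 and -1.001, Tgfb1i1 1.76 and -0.50, Gucy1b3 -2.47 and 3.66, and Pln 1.85 and -3.77, and without the cell of highest Acta2 Synpo2 was -0.40. An Acta2 limit above 0 gave the same groups. Removing cells with Hbb-bh1 of 1 or more was not run, since it left 2 cells. The alternatives that remove cells with Sftpc of 15 or more, Hbb-bh1 of 10 or more or the highest Acta2 were chosen after seeing the data.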

Other observations

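A pooled well of Lgr5-sorted cells was deposited for each mouse. Acta2 and Tagln were at 0 in both pools, of 353310 and 204948 reads, while tdTomato was at 7.02 and 12.3 on the log2(TPM + 1) scale. Myl9 was at 0 in the pool of mouse 1 and at 10.2 in that of mouse 2, and Lgr5 at 0 and 6.84. The pooled wells of the Lgr6 line had Acta2 at 13.5 and 13.9.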
